A study of Mus musculus with 3072 samples.

Results

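MkP were compared with HSC, 2 populations of single cells sorted from the bone marrow of the same 8 mice, to describe which genes megakaryocyte progenitors gain, which they lose and which stem cells already carry. The labels name the populations without spelling the names out. By their usual meaning HSC are haematopoietic stem cells and MkP megakaryocyte progenitors. All wells whose matrix column carries either name were taken. A well was kept with at least 20000 counts, 1000 to 10000 genes and at most 20% of counts from mt- genes, which are encoded in the mitochondrial genome. This kept 1968 of 2303 wells of these populations with counts, 1289 of 1535 MkP and 679 of 768 HSC, out of 3069 wells with counts in the whole study. The limit of 10000 genes alone left out 35 MkP and 18 HSC wells. Counts were summed per mouse and population, which gave 8 MkP and 8 HSC sums, paired by mouse.

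The mice were C57BL/6 of a genotype labelled WT, and their age label counts weeks after transplantation. Of the 8, 4 were controls at week 32 and 4 were platelet-depleted at week 28, by an agent the labels do not name. Treatment, week and the experiment code in the sample titles coincide and cannot be told apart. The mouse is the code that opens each title, which no label explains in words. How the populations were spread over plates is not given in the sources used here, so an effect of the plate was not tested. No source used here gives the antibodies of the sort. Itga2b (CD41), Slamf1 (CD150), Cd48, Kit and Ly6a (Sca-1) encode antigens that such sorts commonly use, so a difference in one of them may have been set by the gate and is given as a description.

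Megakaryocytes are the large marrow cells that shed platelets. They arise from stem cells through progenitors that respond to thrombopoietin, and they build the integrins, glycoproteins, granules and signalling proteins with which platelets stick and clot. Part of the stem cell pool is known to carry megakaryocyte transcripts already. Stem cells in marrow are mostly quiescent, hold detoxifying and drug efflux enzymes, and express genes that interferons induce even at rest.

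Counts came from Smart-seq2, a whole-transcript method for single cells without molecular identifiers, so they are reads after amplification. The median kept well held 1326554 counts and 5916 genes in HSC and 1630938 counts and 6417 genes in MkP. Sums held 59743680 to 152921806 counts in HSC, from 76 to 92 wells, and 201819136 to 314973256 in MkP, from 153 to 178 wells. A level is given as CPM, counts scaled to a library of 1000000 after TMM normalization of the sums by edgeR. CPM does not correct for gene length, so levels are compared within a gene and never between genes. Fewer cells of a type and less RNA per cell cannot be told apart in a sum. Each p-value and SE rests on how much the difference between MkP and HSC varied over these 8 mice.

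Of 17237 genes tested, edgeR's quasi-likelihood test with the mouse as a block called 5860 (34%) at an adjusted p under 0.05. MkP were higher for 2978 genes (17.3%) and lower for 2882 (16.7%). The text keeps to the 9687 genes with a mean of 8 CPM or more over the 16 sums. Of these, 26.2% were called higher and 21.7% lower, and their median log2 fold change was 0.04. The 8 MkP sums did not overlap the 8 HSC sums for 18.3% of them. A gene called higher was classed as gained if HSC averaged under 8 CPM and as raised otherwise, and a gene called lower as lost if MkP averaged under 8 CPM and as lowered otherwise. This gave 144 gained, 2392 raised, 1679 lowered and 426 lost genes, and 4872 that were on in both without a call. With this limit nearly all of the 9687 genes averaged 8 CPM or more in HSC. Only the 144 gained genes and part of 174 genes without a call did not. A list with nearly all members on in HSC is therefore usual. At the limit itself stand Rps3a2 at 7.99 CPM just outside and Xkr5 at 8.02 just inside. Whether the difference between populations differed between control and depleted mice was tested as an interaction, and edgeR called 0 of 17237 genes (0%), with 652 at an unadjusted p under 0.05.

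**Figure D1:**
Mean CPM in 8 HSC sums (horizontal, log axis) and 8 MkP sums (vertical, log axis), 1 point per gene with a mean of 8 CPM or more, coloured by class, with dashed lines at 8 CPM; the 174 genes without a call and under 8 CPM in 1 population are not drawn. The 144 gained genes lie left of the vertical line, the 426 lost genes lie below the horizontal line, and Pf4 and Procr stand far from the diagonal on opposite sides.

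The defining genes followed the labels. Itga2b, the alpha chain of the platelet fibrinogen receptor, stood at 146 CPM in the lowest HSC sum, 261 in the median and 311 in the highest, and at 1221, 1348 and 1575 CPM in MkP. Pf4, the alpha-granule chemokine platelet factor 4, stood at 95, 192 and 390 CPM in HSC and at 1323, 2044 and 3891 in MkP. Neither gene overlapped between populations, and both were well above 8 CPM in every HSC sum. The log2 fold change was 2.62 for Itga2b (SE 0.13), a likely sort antigen, and 3.47 for Pf4 (SE 0.16, edgeR adjusted p = 7.44e-07), with MkP higher in 8 of 8 mice. Procr, the endothelial protein C receptor that marks stem cells, went the other way, from 99.9, 163 and 252 CPM in HSC to 0.13, 1.18 and 2.81 in MkP (log2 fold change -7.29, SE 0.56, adjusted p = 1.05e-05). Every MkP sum lay below every HSC sum.

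**Figure D2:**
CPM (log axis) of 12 genes in the HSC and MkP sums, 1 line per mouse, circles for control and squares for depleted mice; values under 0.01 CPM are drawn at 0.01. Lines of Itga2b, Pf4, Gata1, Klf1 and Nkg7 rise in 8 of 8 mice, those of Procr, Ly6a, Hlf, Mecom and Gbp4 fall in 8 of 8, and those of Vwf go both ways.

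The HSC level of the megakaryocyte genes was spread unevenly over wells. With each well thinned to 20000 counts, 44.2% of HSC wells had a count of Itga2b (SD 8.9 over 8 mice), against 94.8% of MkP wells. For Pf4 the shares were 36.1% and 75.1%, and for Gp9, the small subunit of the von Willebrand factor receptor, 38% and 67.4%. In CFU, a further sorted population in which 611 of 627 wells held 3 or more of 8 erythroid markers, these shares were 7.12%, 6.51% and 10.4%. The shares of Pf4 and Gp9 rose from HSC to MkP in 8 of 8 mice (exact sign-flip permutation test, two-sided, p = 0.00781, the smallest that 8 mice allow; adjusted p = 0.0165 over 55 marker genes). Over these 55 genes, the share rose for 23 and fell for 13. With any 1 mouse left out, 14 to 16 shares rose, the smallest p being 0.0156 with 7 mice. The 68 of 679 HSC wells with the highest level held 83.9% of the CPM of Pf4 summed over wells and 58.3% of that of Itga2b. In MkP the 129 of 1289 wells with the highest level held 44.6% and 24%.

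Stem and megakaryocyte transcripts met in single HSC wells, but Pf4 and Itga2b were less frequent in wells with Procr than in wells without it. Taking 10 CPM of the well as present, 448 of 679 HSC wells had Procr. Of these 197 also had Pf4 (44%) and 150 also had Itga2b (33.5%). Among the 231 HSC wells without Procr, 158 had Pf4 (68.4%) and 166 had Itga2b (71.9%). Gp9 was likewise in 37.9% of wells with Procr and 57.1% without. Vwf went the other way, with 48% and 40.7%. At the same limit 9.25% of CFU wells had Pf4, 6.06% Itga2b, 26% Gp9 and 21.7% Vwf. Among wells with Procr, the share with Itga2b ran from 23.3% to 48.8% over the mice and that with Pf4 from 29% to 67.8%. For Gp9 it ran from 20% to 51.7% and for Vwf from 22.2% to 78%. Shares per mouse among wells without Procr were not computed, and none of these differences was tested. The limit of 10 CPM lies close to the median of Pf4 over HSC wells, 11.9 CPM. In MkP, 17 of 1289 wells had Procr. These pairs of genes were chosen after their values were seen.

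Vwf, the adhesive protein of the alpha granule, gave no call between populations. It stood at 65.2, 123 and 299 CPM in HSC and at 130, 180 and 260 in MkP, with a log2 fold change of 0.46 (SE 0.22, edgeR adjusted p = 0.144). MkP were higher in 6 of 8 mice, and the sums overlapped over most of their range. Of HSC wells thinned to 20000 counts 41% had Vwf (SD 15), ranging over the mice from 18.4% to 65%, against 47.4% of MkP wells (exact sign-flip permutation test, adjusted p = 0.283). DESeq2 called the Vwf difference at an adjusted p of 0.0452, and so did edgeR without the wells that held markers of other cell types, at 0.046.

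**Figure D3:**
Share of wells with a count of each of 13 genes after thinning to 20000 counts per well (vertical, percent), in HSC, MkP and CFU; bars are means and error bars SDs over 8 mice. Itga2b, Pf4 and Gp9 had counts in 36.1% to 44.2% of HSC wells and in 67.4% to 94.8% of MkP wells, Procr and Ly6a almost only in HSC, and Klf1 in 97.4% of CFU wells.

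Among proteins stored in the alpha granule, 14 of 24 listed genes passed 8 CPM, and 7 were called higher and 5 lower. Of the 14, 13 averaged above 8 CPM in HSC, a share usual for genes that pass the limit. The median log2 fold change of the 14 was 0.47. Serpine2, a protease inhibitor also called protease nexin-1, rose from 1.62, 10.8 and 19.6 CPM in HSC to 125, 200.1 and 259 in MkP (4.53, SE 0.42). Treml1, a receptor held in the granule membrane, rose from 13.2 to 79.3 CPM on average (2.66, SE 0.17), and no MkP sum of either gene overlapped an HSC sum. Gas6, the ligand of the TAM receptors, was lost, from 25.1, 27.1 and 44.4 CPM to 0.04, 0.98 and 2.79 (-5.41, SE 0.69). Mmrn1, which encodes multimerin 1, was lowered from 351 to 172 CPM (-1.03, SE 0.16), and Selp, or P-selectin, from 210 to 115 CPM.

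Of the platelet adhesion receptors 16 passed 8 CPM, with 8 called higher and 3 lower and a median of 0.53. The glycoprotein Ib-IX-V complex, the receptor for von Willebrand factor, rose in each of the 3 subunits that passed. Gp5 went from 55.9 to 268 CPM (2.32, SE 0.15), Gp1ba from 17.4 to 54.5 (1.70, SE 0.18) and Gp9 from 66.2 to 144 (1.15, SE 0.10), all without overlap between populations. The tetraspanin Cd9 rose from 237 to 719 CPM (1.61, SE 0.07). The beta chain partner of Itga2b, Itgb3, rose from 50.5 to 108 CPM (1.17, SE 0.15) with overlapping sums. The junction proteins Esam (215 to 91.4 CPM, -1.24) and Jam3 (16.7 to 2.42 CPM, -2.98) fell, as did Pear1, the platelet endothelial aggregation receptor (205 to 129 CPM, -0.66).

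Receptors coupled to G proteins and their effectors moved further: 14 of 23 were called higher and 3 lower, with a median of 0.75. Of the 23, 18 were on in HSC and 5 were gained. F2rl2, which encodes the thrombin receptor PAR3, rose from 2.26, 12.2 and 30.8 CPM in HSC to 147, 178 and 203 in MkP (4.18, SE 0.49). F2r, which encodes the thrombin receptor PAR1, was already at 209 CPM in HSC and rose to 655 (1.65, SE 0.09), whereas F2rl3, for PAR4, fell from 102 to 61.1 CPM (-0.73, SE 0.12). P2ry1, an ADP receptor, rose from 12.1 to 66.4 CPM (2.54). The small GTPase Rap1b, which switches the fibrinogen receptor on, rose from 163 to 677 CPM (2.12), and the G-protein regulators Rgs10 and Rgs18 by 4.14 and 0.84 on the log2 scale. Mrvi1, the cyclic GMP kinase substrate also called IRAG, was among the most strongly gained genes, from 0.11 to 20.3 CPM, and 3 of its 8 HSC sums stood at 0. Phospholipase Plcb2 fell from 190 to 65.8 CPM (-1.54).

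The proteins that relay signals from ITAM receptors and integrins were nearly all on in HSC, 19 of 20, as genes at large were. Of the 20, 12 rose while 5 fell. Ubash3a, a phosphatase-like suppressor of such signals, was gained, from 4.73 to 109 CPM (5.17, SE 0.69). The kinase Syk (78.1 to 177 CPM, 1.21), the adaptor Lat (70.6 to 149 CPM, 1.10) and the integrin activator Fermt3, or kindlin-3 (791 to 1403 CPM, 0.83), rose without overlap. The phosphatase Ptpn6, or SHP-1, fell from 330 to 211 CPM (-0.64). Without wells that held other cell types' markers, 12 members rose and 2 fell.

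Genes of granule biogenesis and secretion were called about as often as genes at large. Of 32 members, all above 8 CPM, 31 were on in HSC, a share usual for genes that pass the limit. The median was -0.13. Of these members 7 rose (21.9%), 8 fell (25%) and 17 gave no call. Over all genes of 8 CPM or more 26.2% rose and 21.7% fell. The rises included the dense granule protein Slc35d3, gained from 2.45 to 41.9 CPM (4.54, SE 0.54), and pleckstrin Plek (105 to 665 CPM, 2.76). The SNARE protein Stx11 (13.2 to 73.7 CPM, 2.64) and the GTPase Rab27b (57.6 to 221 CPM, 1.96) rose too. Nbeal2, whose loss causes grey platelet syndrome, was lower in MkP, at 43 against 99.5 CPM (-1.18), and its relative Nbea fell from 18.5 to 3.67 CPM. In the cytoskeleton 12 of 25 members rose and 4 fell, led by the tubulin Tuba8 (61.9 to 354 CPM, 2.59) and the focal adhesion protein vinculin, Vcl (24.4 to 61.5 CPM, 1.35), while Mylk, a myosin kinase, fell from 54.4 to 19.4 CPM. The eicosanoid enzymes gave 2 rises and 3 falls among 8, and Alox5, the leukotriene-forming lipoxygenase, was gained from 1.70 to 39.5 CPM (4.89, SE 0.89).

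Promoters of members that rose are printed from RefSeq on GRCm38.p6, as the 250 bases before the gene's start. The build behind the counts is not given in the sources used here, so these positions are RefSeq's own. Both strands were searched for AGATAA, the core of a site for GATA factors, and CAGGAA, a core of sites for ETS factors such as Fli1. The cores could share an end base, and overlaps were not removed. Itga2b (chr11:102469884-102470133, minus strand) and Treml1 (chr17:48359666-48359915, plus strand) hold the second motif on the opposite strand, and F2rl2 (chr13:95696670-95696919, plus strand) holds the first. They are shown because they hold a match, and Pf4 and Gp9 hold neither motif in this window. Capitals mark the match.
Itga2b: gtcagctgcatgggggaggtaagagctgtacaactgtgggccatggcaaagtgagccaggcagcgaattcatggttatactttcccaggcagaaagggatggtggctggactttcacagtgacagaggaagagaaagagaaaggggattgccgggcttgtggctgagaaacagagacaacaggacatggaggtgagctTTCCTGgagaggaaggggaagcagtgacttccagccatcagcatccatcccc
Treml1: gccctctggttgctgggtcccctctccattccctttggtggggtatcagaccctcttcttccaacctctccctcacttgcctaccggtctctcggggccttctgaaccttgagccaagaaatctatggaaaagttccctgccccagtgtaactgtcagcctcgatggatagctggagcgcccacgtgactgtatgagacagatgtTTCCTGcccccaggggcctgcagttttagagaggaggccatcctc
F2rl2: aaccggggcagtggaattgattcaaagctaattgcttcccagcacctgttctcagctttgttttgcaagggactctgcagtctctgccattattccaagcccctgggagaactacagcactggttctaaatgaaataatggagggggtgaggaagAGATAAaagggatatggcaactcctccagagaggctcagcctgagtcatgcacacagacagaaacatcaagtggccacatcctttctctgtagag
CAGGAA was found in 6 of 7 alpha-granule genes called higher (85.7%) and in 2 of the 7 adhesion receptors called higher that have an entry (28.6%). Over the 7745 genes of 8 CPM or more with an entry the share was 26.1%, and over all 32851 promoters of RefSeq it was 25.7%. AGATAA was in 0 and 1 of those genes, against 6.96% and 9.99%. CAGGAA was also in 11 of 16 GTPase genes called lower (68.8%), described further on. A match describes these letters and is not evidence of binding.

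Members of the thrombopoietin pathway mostly fell in MkP. Of 18 members that passed 8 CPM, 11 fell and 1 rose, with a median of -0.89. The falls included the feedback inhibitors that STAT5 is known to induce, Cish (78.1 to 20 CPM, -1.95) and Socs2 (48.9 to 8.54 CPM, -2.61), and the adaptor Sh2b3, or Lnk (61.3 to 20.5 CPM, -1.56). The kinase and factors themselves, Jak2, Stat5a and Stat5b, gave no call. Stat5b was called higher without control mouse 3 (edgeR adjusted p = 0.0492) or control mouse 4 (0.0408), and Jak2 without depleted mouse 3 (0.0219). The phosphatase Ptpn11, or SHP-2, was the single rise, from 52.5 to 79.6 CPM.

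Among transcription factors of megakaryocytes and red cells 24 of 25 were on in HSC, again a usual share. Gata1, the master factor of both lineages, rose from 15, 31 and 57.7 CPM in HSC to 218, 260 and 303 in MkP (3.01, SE 0.21). Klf1, a factor of red cells, was gained, from 2.91, 4.60 and 12.4 to 37.4, 64.7 and 104 CPM (3.73, SE 0.24), and both were separate in all sums. Fli1, an ETS factor of megakaryocytes (214 to 342 CPM, 0.68), Mef2c (282 to 513 CPM, 0.88) and Gfi1b (140 to 228 CPM, 0.70) rose from a high base. Lyl1, a partner of the Tal1 complex, fell from 275 to 109 CPM (-1.34), Lmo2, which bridges that complex, from 962 to 783 (-0.29), and Nfia from 41 to 18 (-1.21). The list gave 12 rises and 6 falls. Gata1 was present at 10 CPM in 1022 of 1289 MkP wells and in 78 of 679 HSC wells, and 96% of its summed CPM in HSC lay in the 68 wells with the highest level.

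Stem cell factors fell in 14 of 22 cases and rose in 4, with a median of -0.72. Hlf stood at 105, 170 and 295 CPM in HSC and at 14.9, 19.1 and 25 in MkP (-3.19, SE 0.13). Mecom fell from 140 to 18.6 CPM (-2.95), Prdm16 from 53.5 to 8.44 (-2.97), Nkx2-3 from 67 to 2.94 (-4.68), the RNA-binding Msi2 from 119 to 37.1 (-1.70) and Erg from 49 to 17.8 (-1.45), each without overlap. The 4 rises included Runx3 (37.1 to 126 CPM, 1.80), Zfp36l1 (27.7 to 48.3 CPM, 0.80) and Myc (270 to 360 CPM, 0.41). The call of Myc was lost without control mouse 2 or 3 or any 1 depleted mouse (edgeR adjusted p from 0.0565 to 0.0645), without wells that held other cell types' markers (0.0799) and in control mice alone (0.675). Of 20 listed Hox genes only 4 passed 8 CPM and all 4 fell, among them Hoxa9 (88.2 to 30.4 CPM, -1.54) and Hoxa5 (15.5 to 3.61 CPM, -2.10).

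Surface proteins of stem and progenitor cells gave 22 falls and 3 rises among 29, with a median of -1.05. Ly6a went from 163, 227 and 395 CPM to 0.56, 4.20 and 5.99 (-6.05, SE 0.46). Fgd5, which is no surface protein but is used as a stem cell marker, fell from 36.5 to 1.12 CPM, the adhesion molecule Alcam from 42.1 to 1.66 and the receptor Adgrl4 from 422 to 96.1. Kit, the receptor of stem cell factor, fell less, from 709 to 417 CPM (-0.79), and Slamf1 from 96.6 to 60.3 (-0.65), with overlapping sums. Cd48 was gained, from 0.06, 2.43 and 14.5 CPM to 49, 72.7 and 83.3 (5.10, SE 0.80). The Fc receptor Fcgr2b was gained too, from 0.37 to 16.5 CPM (5.99, SE 0.64).

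Receptors for outside signals changed by name. Of 18 cytokine receptors that passed, 10 fell and 2 rose. The granulocyte factor receptor Csf3r fell from 96.1 to 10.9 CPM (-3.22), the shared gamma chain Il2rg from 149 to 37 (-1.98) and the interferon gamma receptor chain Ifngr2 from 24.2 to 6.27 (-2.14), whereas the erythropoietin receptor Epor rose from 17.4 to 59.4 CPM (1.78, SE 0.09). In the TGF-beta, BMP and Notch pathways 7 of 17 fell and 3 rose, with falls of Notch1 (15.6 to 3.22 CPM, -2.32) and Bmpr2 (26.1 to 7.94 CPM, -1.65). Of 8 guidance molecules and receptors that passed, 4 fell and 2 rose. The Robo receptors went opposite ways, with Robo4 lost (55.5 to 3.20 CPM, -4.17) and Robo3 raised (8.74 to 64.8 CPM, 2.99). The ephrin Efna1 was lost (29.8 to 0.47 CPM) and the semaphorin Sema4d raised (45.2 to 101 CPM, 1.15). All of these named genes were separate between populations.

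Genes of the dividing cell rose together. All 40 DNA replication genes were called higher, with a median of 1.30 and 27 of them without overlap, and 37 of 40 mitosis genes were called higher, with a median of 2.29. Mki67, carried by cycling cells, stood at 6.47, 32.1 and 88.3 CPM in HSC and at 115, 182 and 318 in MkP (2.65, SE 0.36, edgeR adjusted p = 3.13e-04). The HSC sums spread more than 10-fold between mice while the MkP sums did not, so the size of the rise differed by mouse. The median over mitosis genes ran from 1.02 to 3.79 between mice and that over replication genes from 0.52 to 2.07. Ccnb2, a mitotic cyclin, rose from 27.3 to 153 CPM (2.78), Mcm10, which starts replication forks, from 15.1 to 70.2 (2.54), and Uhrf1, which copies DNA methylation, from 98 to 288 (1.77). Of the G1 cyclins and kinases 11 of 14 rose, led by E2f8 (10.5 to 96.4 CPM, 3.40), and Cdk6 went from 377 to 1378 CPM (1.93). Cyclin D1, Ccnd1, fell from 90.5 to 44.2 CPM (-1.06) and cyclin D2, Ccnd2, from 779 to 597 (-0.38). None of the 3 CDK inhibitors Cdkn1a, Cdkn1b and Cdkn2c gave a call, and the fourth that passed, Cdkn2d, rose from 62.6 to 98.2 CPM (0.65).

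**Figure D4:**
Median over list members of the log2 ratio of MkP to HSC CPM (horizontal) in each mouse, for 14 lists, circles for control and squares for depleted mice. Mitosis medians spread from 1.02 to 3.79 between mice, respiratory chain medians only from 0.39 to 0.67, and the interferon-inducible GTPases lie between -3.29 and -1.75.

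Machinery for growth mostly rose by small amounts, judged by list medians that varied little between mice. The nuclear genes of the respiratory chain rose in 69 of 75 cases and fell in 1, Cox7a2l, with a median of 0.53 that ran from 0.39 to 0.67 between mice. The mitochondrial ribosome gave 53 rises and 0 falls among 76 (median 0.39), the proteasome 33 rises and 1 fall among 38 (median 0.39), ribosome biogenesis 34 rises and 0 falls among 40 (median 0.48) and chaperones 19 rises and 0 falls among 24 (median 0.46). The chaperone Hspa1a was neither small nor even in its rise. It went from 0.03, 12.6 and 137 CPM in HSC to 24.9, 79.6 and 555 in MkP (2.74, SE 0.93), with overlapping sums. Cox5a, a subunit of cytochrome oxidase, went from 76.9 to 152 CPM, Mrpl18 from 78.4 to 163 (1.08) and Nhp2, a small nucleolar RNA-binding protein, from 107 to 206 (0.97). Genes encoded in the mitochondrion did not follow: 4 of 12 fell and 1 rose, with mt-Co1 at 9250 CPM in HSC and 7388 in MkP (-0.32, SE 0.04). Cytosolic ribosomal proteins gave 16 rises and 8 falls among 78, with a median of 0.03, below the background share of calls in both directions, and single ones are uncertain because of near-identical copies.

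Metabolic lists differed from each other. Folate and nucleotide synthesis rose in 20 of 24 cases (median 0.69), with Tyms, thymidylate synthase, going from 77 to 195 CPM (1.45) and Shmt2 from 172 to 311 (0.89). Heme and iron genes rose in 10 of 20 cases, among them the ferrireductase Steap3 (13.2 to 54.8 CPM, 2.37), and 4 fell. Glycolysis gave 6 rises and 7 falls among 19, and its lactate dehydrogenases parted. Ldhb went from 147, 163 and 209 CPM to 12.4, 16.9 and 24.4 (-3.25, SE 0.12), while Ldha rose from 1240 to 1936 CPM (0.66, SE 0.07), neither with overlap. Pyruvate kinase Pkm fell from 921 to 548 CPM (-0.75) and hexokinase Hk2 from 48.6 to 20.9 (-1.17). Cholesterol synthesis gave 2 rises and 3 falls among 22, with Insig1, a brake on that pathway, falling from 85.5 to 31.5 CPM (-1.42). Among lipid signalling genes Mfsd2b, the exporter of sphingosine 1-phosphate from red cells and platelets, rose from 23.8, 61 and 104 CPM to 710, 864 and 967 (3.96, SE 0.20), and Sgpl1, the lyase that destroys this lipid, fell from 42.9 to 7.75 CPM (-2.57, SE 0.22).

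Of 21 FoxO-linked and quiescence genes 9 fell, 10 gave no call and 2 rose, Btg2 and Rb1, with falls of Txnip, a brake on glucose uptake (1578 to 605 CPM, -1.41), Pik3ip1, an inhibitor of PI3 kinase (282 to 75.2 CPM, -1.92), and Tsc22d3, the glucocorticoid-induced leucine zipper (474 to 169 CPM, -1.48). The antiproliferative Btg2 rose, from 17.9, 33.2 and 68.8 CPM to 91.3, 179 and 431 (2.52, SE 0.25). Detoxification and efflux genes fell in 16 of 22 cases and rose in 1 (median -0.67). Sult1a1, a phenol sulfotransferase, went from 162, 259 and 316 CPM to 0.40, 1.46 and 5.02 (-7.28, SE 0.48), glutathione transferase Gstm1 from 285 to 57.6 (-2.32) and the efflux pump Abcg2 from 144 to 81.1 (-0.82). Of 7 imprinted genes 5 fell, among them Ndn (51.5 to 3.61 CPM) and Grb10 (71.4 to 32.9 CPM, -1.11). Of 25 chromatin regulators 7 rose (28%), 5 fell (20%) and 13 gave no call (median 0.15). These shares lie near the 26.2% and 21.7% over all genes of 8 CPM or more. The maintenance methyltransferase Dnmt1 (147 to 335 CPM, 1.24) and the histone methyltransferase Ezh2 (49.7 to 123 CPM, 1.38) were among the rises. The relative of the latter, Ezh1 (81.2 to 33.4 CPM, -1.23), and the Polycomb protein Cbx7 (56.7 to 14.9 CPM, -1.95) fell.

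Immune GTPases were lower in MkP almost throughout. These proteins, made in response to interferon, attack the membranes that hide parasites and bacteria, and the related Gimap proteins support lymphocyte survival. Of 23 genes that passed 8 CPM, 22 were called lower and 0 higher, 21 of them without overlap, with a median of -2.36. Gbp4 stood at 17.8, 54 and 177 CPM in HSC and at 0.0033, 0.04 and 1.45 in MkP. Iigp1 went from 64.1, 218 and 316 CPM to 2.05, 9.70 and 20.1 (-4.48, SE 0.36), Tgtp1 from 217 to 13.8 (-3.91), Igtp from 290 to 57.6 (-2.27), Gbp2 from 176 to 43.1 (-1.96) and Gimap6 from 383 to 72.1 (-2.36). Ifi47 alone gave no call, at 37.4 and 35.5 CPM. Of the HSC wells 150 of 679 had Gbp4 at 10 CPM, against 2 of 1289 MkP wells, and the 68 HSC wells with the highest level held 80.8% of its summed CPM.

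Genes of the type I interferon response fell in 21 of 25 cases and rose in 2, with a median of -1.05. Ifitm1, a membrane protein that blocks virus entry, went from 486, 753 and 846 CPM to 41.8, 91.4 and 114 (-3.05, SE 0.15), the RNA sensor partner Oasl2 from 153 to 32.9 (-2.26) and the factor Irf1 from 215 to 62.1 (-1.79). Ifit2 was one of the rises, from 30.7 to 44 CPM (0.55). MHC class I presentation fell in 15 of 22 cases by smaller amounts (median -0.53). H2-K1 stood at 4966 CPM in HSC and 2945 in MkP (-0.75, SE 0.05), B2m at 5111 and 3516 (-0.54, SE 0.05) and the peptide editor Tapbpl at 83.6 and 28.6 (-1.54), each without overlap.

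The promoters of the GTPases were searched on both strands for GAAA, any 2 bases and GAAA again, the repeat bound by interferon regulatory factors. Those printed were chosen because they hold it. Gbp2 (chr3:142620413-142620662, plus strand) holds it on the opposite strand and Igtp (chr11:58199306-58199555, plus strand) on its own, both within 60 bases of the start. The 250 bases before each RefSeq start on GRCm38.p6 are printed, with the match in capitals.
Gbp2: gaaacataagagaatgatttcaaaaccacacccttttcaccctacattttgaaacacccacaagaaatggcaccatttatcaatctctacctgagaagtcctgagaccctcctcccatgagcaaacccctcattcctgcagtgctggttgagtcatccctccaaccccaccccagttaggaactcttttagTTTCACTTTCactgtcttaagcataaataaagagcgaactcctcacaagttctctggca
Igtp: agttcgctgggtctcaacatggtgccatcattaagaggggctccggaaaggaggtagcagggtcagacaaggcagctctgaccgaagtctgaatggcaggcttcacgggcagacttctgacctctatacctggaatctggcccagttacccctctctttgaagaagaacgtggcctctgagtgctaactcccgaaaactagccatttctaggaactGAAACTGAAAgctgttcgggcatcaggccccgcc
Of the 22 GTPases called lower 16 have an entry, and 10 of these (62.5%) hold the motif, as do 7 of 16 (43.8%) of the type I interferon genes called lower. Over the 7745 genes of 8 CPM or more the share was 3.32%, and over all promoters 2.98%.

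**Figure D5:**
Share of each list's members called higher (right, red) or lower (left, blue) in MkP, in percent of its members of 8 CPM or more (number in brackets), for 41 lists in order of median log2 fold change; dotted lines mark 26.2% and 21.7%, the shares over all 9687 such genes. DNA replication reaches 100% on the right and the interferon-inducible and Gimap GTPases 95.7% on the left, while cytosolic ribosomal proteins and cholesterol synthesis lie inside both lines.

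The strongest single gains included genes that other blood cells are known for. The 12 genes with the largest fitted rise among those without overlap were Scin, Siglecf, St8sia6, Kcnj5, Mrvi1, Slc45a3, Dnah12, Atp1b2, Fcgr2b, Cst7, F10 and Btnl9. Scin, an actin-severing protein, stood at 0, 0.02 and 3.02 CPM in HSC and at 9.53, 31.3 and 45.1 in MkP, and its highest HSC sum was that of control mouse 3. Siglecf, a sialic acid receptor of eosinophils, averaged 0.25 and 15.9 CPM, Slc45a3 0.97 and 29.5, the potassium channel Kcnj5 0.69 and 40.2, and the sialyltransferase St8sia6 0.54 and 38.6. With HSC sums this near 0 a fitted fold rests on the small count that edgeR adds, so levels are given in its place. These genes came from few wells. Scin was present at 10 CPM in 133 of 1289 MkP wells, 6 to 26 in each mouse, and in 1 HSC well. Kcnj5 was present in 263 MkP wells and 2 HSC wells. Of the 133 wells with Scin, 104 also had Klf1, 67 Slc45a3, 34 Siglecf and 13 Kcnj5, and 62 had Pf4, against 363 of 1156 with Klf1 and 994 of 1156 with Pf4 among the other MkP wells. In contrast Nkg7, a granule protein of natural killer cells, was present in most MkP wells. It stood at 14.3, 29 and 107 CPM in HSC and at 302, 403 and 502 in MkP (3.67, SE 0.32), in 82% of thinned MkP wells against 18.4% in HSC and 3.64% in CFU, and 1087 of the 1115 MkP wells with Nkg7 had Itga2b. Klrb1c, a natural killer cell receptor also called NK1.1, went the other way, from 0.64, 14.2 and 61 CPM in HSC to 0, 0.28 and 0.8 in MkP (edgeR adjusted p = 0.00537), lower in 8 of 8 mice with overlapping sums. After thinning, 8.63% of HSC wells and 0.3% of MkP wells had a count of it.

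The 12 genes with the largest fitted fall were Prex2, Gbp4, Unc45b, Gbp9, Gimap4, Procr, Sult1a1, Osgin1, Efna1, Gbp8, Lzts1 and Gm35551. Prex2, an exchange factor for Rac, averaged 21.6 CPM in HSC and 0.11 in MkP, Unc45b, a myosin chaperone, 24 and 0.46, and Osgin1, an oxidative stress gene, 32.1 and 0.78. Prex2 was present in 108 of 679 HSC wells. Of these 12, 4 encode GTPases of the interferon-inducible or Gimap families.

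Markers of other cells moved with the comparison. Summed over 8 erythroid markers, HSC sums stood at 34.1 to 232 CPM and MkP sums at 243 to 749, with 6 markers higher and 1 lower in MkP, and 3 or more were present in 165 of 1289 MkP wells and 16 of 679 HSC wells. Of these markers Hba-a1 gave no call, at 3.88 and 4.95 CPM. The 7 mast and basophil markers summed to 1.62 to 33.8 CPM in HSC and 51.2 to 379.7 in MkP, 3 higher and 0 lower, with Mcpt8, Prss34 and Cma1 too low to test, and 3 or more were present in 13 MkP wells and 2 HSC wells. Fcer1a rose from 4.27 to 49.2 CPM, and Cpa3 stood at 8.59 and 57.3 CPM without a call (edgeR adjusted p = 0.0748). Without depleted mouse 2, whose MkP sum of Cpa3 was 226 CPM against at most 48.5 elsewhere, its adjusted p was 0.0012. The 10 neutrophil and monocyte markers summed to 236 to 675 CPM in HSC and 57.9 to 343 in MkP, 2 higher and 2 lower, with 3 or more present in 13 MkP wells and 9 HSC wells. Prtn3, a serine protease, fell from 275 to 50.8 CPM. Mpo, which encodes myeloperoxidase, was gained, from 0.03, 0.58 and 4.87 CPM to 7.74, 13.2 and 235, without overlap and with its highest sum in control mouse 2 (log2 fold change 4.54, edgeR adjusted p = 0.00267, and 4.10 without that mouse). Ctsg, or cathepsin G, was the other rise, at 0.06 and 8.61 CPM on average, and CFU stood at 367 CPM of Mpo and 65.5 of Ctsg. The 7 macrophage markers summed to 12.6 to 129 CPM and 35.3 to 144, 3 higher and 0 lower, with 3 or more present in 96 MkP wells and 24 HSC wells, and the 7 endothelial markers to 272 to 330 and 130 to 191, 0 higher and 2 lower. B cell markers summed to 33 to 55 CPM and 31.3 to 46.9 with 0 calls, and stromal markers to 2.18 to 14.7 and 7.32 to 15.4 with 0 calls. The T and NK markers summed to 28.8 to 114 CPM in HSC and 302 to 502 in MkP, 1 higher (Nkg7) and 1 lower (Klrb1c). Of this list Cd3d, Cd3e, Cd3g, Trbc2 and Gzma were too low to test.

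With the 191 MkP and 26 HSC wells left out that held 3 or more erythroid, neutrophil and monocyte, mast and basophil or B cell markers, edgeR called 5721 genes against 5860. Scin then averaged 16.6 CPM in MkP against 29.6 with all wells, Siglecf 11.4 against 15.9 and Slc45a3 19.4 against 29.5. Each was still called higher. Klf1 and Mpo are themselves among the markers by which wells were left out, so a lower level of either follows from that rule. Klf1 stood at 38.1 CPM in MkP against 70.9 and was still called higher. Atp1b2, a sodium pump subunit at 360.2 CPM in CFU, moved furthest of the 12 largest rises, to 3.34 CPM against 24.2, below the limit of 8 CPM, and Mpo stood at 6.71 against 44.7. Wells with 3 or more macrophage markers were not among those left out. Pf4 stood at 2483 CPM and Kcnj5 at 45.3. DNA replication kept 40 rises and mitosis gave 37, the GTPases 22 falls and stem surface proteins 21.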

How the data were processed

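The authors deposited 1 matrix of read counts per gene and well, as whole numbers that were not normalized. Reads were trimmed with Trim Galore 0.5, aligned with STAR 2.6.0 and counted with HTSeq 0.6.1, judging by the tools in the submitters' processing notes. No source used here names the genome build or annotation. Of the matrix, 1 column of well counts matched no sample and was not used, and 3 samples had no column. Rows with the same symbol (107 symbols) were summed.

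Counts of kept wells were summed per mouse and population and tested with edgeR 4.0.16 (R 4.3.3) by its quasi-likelihood test, with TMM scaling, edgeR's expression filter, the mouse as a block and Benjamini-Hochberg adjustment over all 17237 genes. The pairing comes from the mouse code, and deviations of the sums from the group means correlated by 0.0508 to 0.259 within a mouse. DESeq2 1.42.0 was an alternative. Shares of wells were tested by an exact two-sided sign-flip permutation test over 8 mice (256 patterns, NumPy 2.4.6) after thinning to 20000 counts. Counts were also simulated for 16865 genes, with 100 genes changed at each size and no difference between mice. Of 2-fold and 4-fold changes 71% and 90% were recovered at 8 CPM or more, and 0% and 10% below it. Of 98 calls 4.08% were false. The real fit called 34% of genes, a far larger share than was changed here, so its recovery can differ from these values.

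The populations, the 41 gene lists and the marker lists were chosen with earlier results of these data known. Genes given with values are the 3 defining genes, the 12 largest rises and falls without overlap, and for each list members with a large change, a high level or a needed role, partly chosen because their calls held. The limit of 10 CPM for a marker in a well was set during the work. The promoter window was narrowed to 250 bases after first counts were seen, which left the GTPases at 10 of 16, and the promoters printed were picked from several looked at. Alternatives covered the block, CFU sums, scaling, filters, thinning, other-cell wells, each treatment alone and each mouse left out. Results on some items are not reported here.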

Additional observations from a re-analysis of the deposited data

Results flagged for a closer look

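In groups of 8 sums, 45 of 400 had 1 sum whose gap to the next, over the range of the group, passed Dixon's 95% limit of 0.526. Chance alone passes about 5% of groups. The HSC sum of control mouse 1 stood apart as the highest for Txnip (2112 against 1637 CPM). For St8sia6 (3.13 against 1.05 CPM), Gbp4 (177 against 75.7 CPM), Gimap4 (82.6 against 30.1 CPM), Selp (403 against 230.3 CPM), Mylk (103 against 56 CPM), Neo1 (76.3 against 28.2 CPM) and Oasl2 (267 against 173 CPM), the highest HSC sum was that of control mouse 2. The HSC sum of control mouse 3 stood apart as the highest for Scin (3.02 against 0.0388 CPM), Klf1 (12.4 against 7.27 CPM), Ldha (1808 against 1296 CPM), Nkg7 (107 against 55.1 CPM) and Fcer1a (22.8 against 6.45 CPM). For Kcnj5 (4.84 against 0.514 CPM), Mrvi1 (0.529 against 0.153 CPM), Dnah12 (3.85 against 1.58 CPM), Atp1b2 (6.76 against 0.341 CPM) and Cd48 (14.5 against 5.93 CPM), the highest HSC sum was that of control mouse 4. The HSC sum of depleted mouse 1 stood apart as the highest for Siglecf (1.69 against 0.243 CPM). For Cd9 (329.9 against 252 CPM) and Lmo2 (1133 against 986 CPM), the highest HSC sum was that of depleted mouse 2. The HSC sum of depleted mouse 4 stood apart as the highest for Itgb3 (101 against 59.4 CPM). The HSC sum of control mouse 2 stood apart as the lowest for Sgpl1 (30.1 against 40.9 CPM). The MkP sum of control mouse 2 stood apart as the highest for Erg (28.2 against 20.7 CPM), Slamf1 (95.1 against 62.9 CPM) and Mpo (235 against 47.4 CPM). For Gbp4 (1.45 against 0.326 CPM), Osgin1 (3.26 against 1.08 CPM), Cish (31.6 against 21.2 CPM) and Hspe1 (298 against 204 CPM), the highest MkP sum was that of control mouse 3. The MkP sum of control mouse 4 stood apart as the highest for Mrvi1 (40.6 against 22 CPM). For Dnah12 (39.6 against 20.7 CPM), Gimap6 (87.9 against 73.1 CPM), Cpa3 (226 against 48.5 CPM) and Hba-a1 (15.6 against 7.77 CPM), the highest MkP sum was that of depleted mouse 2. The MkP sum of depleted mouse 3 stood apart as the highest for Prex2 (0.787 against 0.056 CPM), Lzts1 (3.15 against 1.49 CPM), H2-K1 (3433 against 3053 CPM) and Hspa1a (555 against 275 CPM). For Unc45b (2.66 against 0.475 CPM) and Gimap4 (1.18 against 0.393 CPM), the highest MkP sum was that of depleted mouse 4. The MkP sum of control mouse 2 stood apart as the lowest for Fermt3 (1179 against 1396 CPM) and mt-Co1 (6658 against 7254 CPM). The second value in each pair is the next sum. For Ctsg, the highest HSC sum was that of depleted mouse 4 (0.257 against 0.105 CPM) and the highest MkP sum that of control mouse 2 (44.4 against 9.94 CPM). The difference between MkP and HSC passed the test of an interaction with treatment for 0 genes; control and depleted mice were not compared within a population.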

How the results depend on the processing

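With control mice alone edgeR called 2563 genes (1158 higher and 1405 lower; 83 gained, 987 raised and 827 lowered), and with depleted mice alone 2968 (1534 and 1434; 74, 1330 and 896), each from 4 mice. Without 1 mouse in turn, 5217 to 5556 genes were called, and shares of wells rose for 14 to 16 genes. Without the replicate block 5840 genes were called (2785 higher and 3055 lower), and DESeq2 called 7433. Of 200 genes followed, 190 were called and 135 of them were the same in every alternative. The other 55 lost their call in at least 1, among them 47 within one treatment and 9 without 1 mouse. The 200 genes were partly chosen because their calls held, so these numbers do not stand for all genes called. Of 41 list medians 7 moved by more than the spread between mice. Reversals of direction touched 6 genes, none of them called. Cdkn1a went to -0.12 without the block, -0.22 with thinned wells, -0.46 in control mice and from -0.0803 to 0.404 without 1 mouse. Cdkn1b went to 0.18 in depleted mice and from -0.157 to 0.0272 without 1 mouse, and Cdkn2c to 0.0237 in control mice. Hba-a1 went to -0.11 without other-cell wells, and from -0.388 to 0.459 without 1 mouse (below 0 without control mouse 1 or 4 or depleted mouse 2). Ifi47 went to 0.00087 with no expression filter, 0.0238 without other-cell wells, 0.28 in depleted mice, and from -0.0956 to 0.0433 without 1 mouse, and Stat5a to -0.0171 with thinned wells. The cause of these shifts was not tested. Genes under 8 CPM were poorly resolved in the simulation, where 2-fold changes at that level were not recovered. It changed a far smaller share of genes than the real fit called, so it does not give the recovery of the real fit.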
